A study of Solanum tuberosum with 136 samples.

Results

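Control buds of stored potato tubers were compared between the start of a storage trial and its week 3. The tubers were of the cultivar Russet Burbank (Solanum tuberosum), the tissue was the primary bud, and none of these tubers had received ethylene. The comparison takes all libraries titled as control primary bud at weeks 0 and 3, 2 of the 34 groups of the series, each of 4 libraries, so 8 libraries in all. The other groups are control buds at 7 later weeks up to week 18, flesh of the same weeks, and tubers of both tissues under 10 ppm ethylene or returned to air after it. The numbers in the titles were read as weeks, as they match the sampling times that the series text lists. The sources used here do not say how long the tubers had been out of the ground at week 0. Nothing in the labels ties the 4 libraries of a week to separate tubers, so a p-value here measures the spread among these libraries, and that spread may be technical.

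A potato tuber is a swollen underground stem, and its eyes hold the buds from which sprouts grow. After harvest a bud passes through dormancy, a period without visible growth that ends with sprouting, and abscisic acid and ethylene are known for holding dormancy while gibberellin and cytokinin are known for ending it. The flesh around the bud is storage tissue, rich in starch and in storage proteins, which the growing sprout later draws on.

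Levels were counted per gene and are given as CPM, that is counts relative to the library total after scaling. Bud and flesh libraries were scaled in separate fits, so their CPM are not on a strictly common scale. The libraries of week 0 held 41.5 M to 44.3 M counts and those of week 3 held 29 M to 43.1 M, against 16.6 M to 50.9 M in the series. Replicate 1 of week 3 was the shallowest of the 8. Between 21641 and 21767 genes had a count in a library of week 0 and between 20914 and 21493 in a library of week 3. The IDs carry no gene names, so cell type markers could not be read, and the tissue label was checked by rank correlation alone. The median Spearman correlation of each of the 8 libraries with the other control bud libraries was 0.926 to 0.947, and with the control flesh libraries 0.902 to 0.933, higher with bud in each of the 8. This held for medians: the highest correlation of each library with a flesh library (0.926 to 0.951) was above its lowest with a bud library (0.914 to 0.931). In bulk tissue, fewer cells of a type and less RNA per cell cannot be told apart.

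The weeks separated on the first principal component, which held 47.6% of the variance, with the week 0 libraries between -78.46 and -66.08. The week 3 libraries lay at 82.87, 80.07, 73.96 and 50.46 in the order of their replicate numbers. Replicate 4 of week 3 stood apart from the others of its week, on the side of week 0. Its rank correlation with week 0 libraries was 0.9645 to 0.9687, where the other libraries of week 3 had 0.9547 to 0.9629. Results that rest on week 3 are therefore also given without it where that alters a count by more than 1.5 times or ends a call, and once for the comparison as a whole.

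The transcripts of the bud differed widely between weeks 0 and 3. Each week is a single group of libraries, so time in storage cannot be told apart from other differences between the samplings. Of 23733 genes tested, 4030 were higher at week 3 (17%) and 4335 were lower (18.3%), together 35.2%, by edgeR's quasi-likelihood test at a Benjamini-Hochberg adjusted p under 0.05. The numbers of genes in the 2 directions were alike, but the sizes of the changes were not. The genes that rose did so by a median of 0.53 on the log2 scale, and 668 of them, 16.6%, rose 2-fold or more. The genes that fell had a median log2 difference of -0.83, and 1785 of them, 41.2%, fell 2-fold or more. At 4-fold or more the counts were 247 higher and 813 lower, and at 8-fold or more 165 and 489. Without replicate 4 of week 3, 699 genes rose and 1841 fell 2-fold or more, of 4089 and 3960 called. The fitted median over all genes tested was 0 on the log2 scale. The scaling places the bulk of the genes near 0, so this median, and in part the like numbers of rises and falls, follow from it. A shift shared by most genes cannot be seen in such values. A further 9145 genes had too few counts to be tested.

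**Figure D1:**
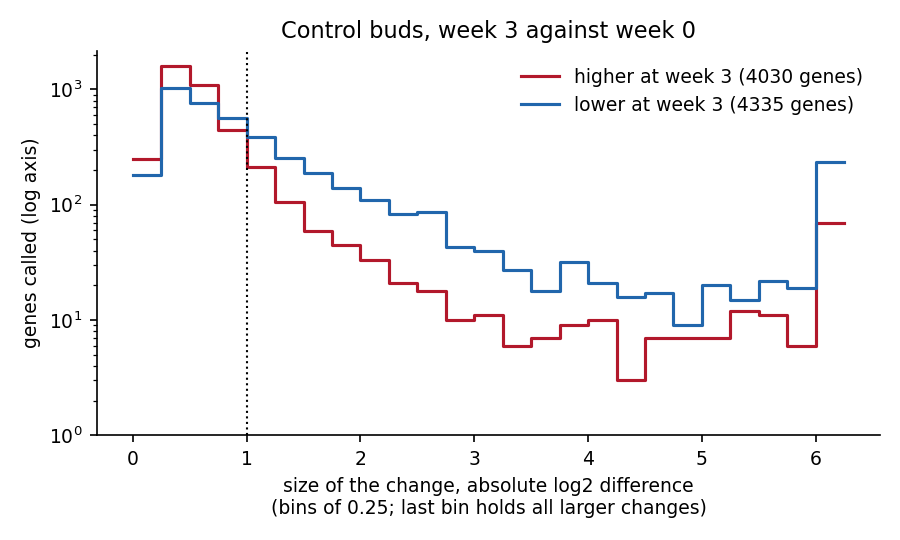
Number of genes called (vertical, log axis) by the absolute log2 difference between week 3 and week 0 (horizontal, bins of 0.25, with all changes beyond the last bin collected in it), for genes higher (red) and lower (blue) at week 3 in control buds. Right of the dotted line, which marks 2-fold, lie 668 higher and 1785 lower genes, and the blue line runs above the red one there.

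The excess of large falls over large rises was present at every level of expression. Among genes with a mean under 1 CPM, 407 fell and 212 rose 2-fold or more, which is 1.92 falls for each rise. The ratio was 2.47 between 1 and 5 CPM, 3.38 between 5 and 20 CPM, 3.67 between 20 and 100 CPM and 2.85 above 100 CPM. Smaller changes were balanced the other way among abundant genes: above 100 CPM, 665 genes rose and 534 fell when all sizes are counted, of 2008 tested. The share of genes called grew with level, from 11.4% under 1 CPM to 59.7% above 100 CPM.

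The CPM of the 4 libraries of a week did not overlap with those of the other week for 3489 of the higher genes (86.6%) and for 3763 of the lower genes (86.8%). Over all genes tested this held for 8832 (37.2%), so most called genes, and a part of the others, had separate groups. At the level of single libraries, the median of log2(CPM + 1) over the 1785 strongly lower genes was 3.2, 3.25, 3.17 and 3.09 at week 0. It was 1.64, 1.54, 1.58 and 1.87 at week 3, highest in replicate 4. These lists were chosen by the same difference, so their levels are a description of how alike the libraries were and no further test.

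The gene with the largest fold rise among those reaching 5 CPM was Soltu.DM.05G012430, numbered on chromosome 5. It stood at 0.338, 1.03, 0.646 and 0.54 CPM at week 0 and at 31, 30.2, 20.8 and 28.8 CPM at week 3. All week 3 libraries were far above all week 0 libraries. Groups without overlap were a condition for naming this gene and the others of the bud comparison, so their separation is no further test. The rise was 5.44 on the log2 scale (SE 0.43, 43.3-fold, adjusted p = 6.435e-12, edgeR). The gene was at 7.25 CPM or less in flesh at week 0 and at 368 to 393 CPM there at week 3, and in buds under ethylene at week 3 it was at 152 to 181 CPM.

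In absolute terms the largest rise was that of Soltu.DM.01G020840, numbered on chromosome 1. Its 4 values at week 0 were 1708, 1696, 1671 and 1687 CPM, and those at week 3 were 4669, 4668, 4472 and 4438 CPM. Both groups were tight and lay far apart, with a log2 difference of 1.43 (SE 0.08, adjusted p = 4.203e-15). The level of week 3 was still there at week 6, with 4326 to 4694 CPM, and at week 18 the gene was at 513 to 599 CPM, below its starting level in all 4 libraries. From week 6 to week 18 it fell by 3.02 on the log2 scale (SE 0.09, adjusted p = 2.381e-23).

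The largest fold fall among genes reaching 5 CPM was that of Soltu.DM.12G025560, numbered on chromosome 12. It was at 6.63, 5.02, 5.17 and 6.08 CPM at week 0 and had no count in any library of week 3, which puts the fall at 284-fold or more when week 3 is set at a floor of 3 counts over its 4 libraries (adjusted p = 9.041e-06). The bound covers counting error only. The gene had no count in buds under ethylene at week 3 either, and in control buds of week 18 it was back at 0.61 to 1.49 CPM.

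The largest absolute fall was that of Soltu.DM.01G034410, also numbered on chromosome 1, one of the genes with most counts in the bud. Its CPM was 9486, 8652, 8251 and 9818 at week 0 and 3471, 3428, 3688 and 3499 at week 3. The groups did not overlap, as its naming required, and the log2 difference was -1.36 (SE 0.09, adjusted p = 2.992e-14). It stood at 909 to 1116 CPM at week 6 and at 1082 to 1210 CPM at week 18, so the first 3 weeks held most of its fall in CPM.

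**Figure D2:**
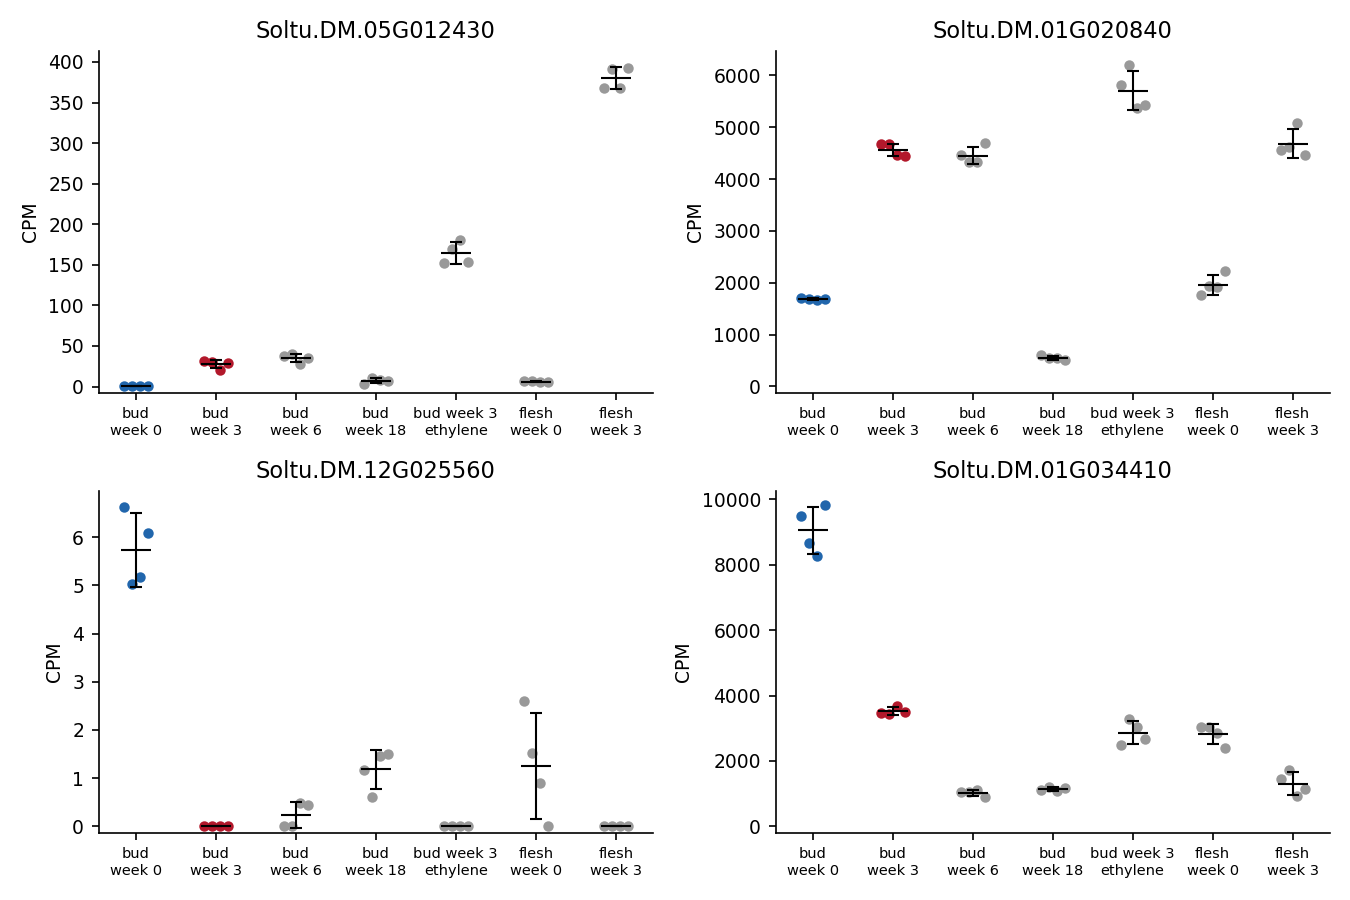
CPM (vertical, linear from 0) of 4 genes in each library of 7 groups (horizontal). Points are libraries, with week 0 buds in blue, week 3 buds in red and the other groups in grey, and bars give the mean ± SD of 4 libraries. In each panel the blue and red points lie apart, as the choice of the genes required. Soltu.DM.05G012430 is highest in flesh at week 3, between 368 and 393 CPM.

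Genes without any count at one of the weeks were also more often lost than gained. Of the 19716 genes with at least 10 counts in each library of week 0, 0.675% had no count in any library of week 3. All but 8 of these lost genes were called. The 8 had too few counts to be tested, apart from a gene with an adjusted p of 0.05136 (edgeR). In the other direction, 20 of the 19317 genes with at least 10 counts in each library of week 3 had none at week 0 (0.104%). All 20 were called. Both sets were chosen on the libraries that the test compares, so these calls are no further support. The lost genes had mean levels of 0.268 to 5.73 CPM at week 0, with a median of 0.76 CPM, and fell by 13.3-fold or more to 284-fold or more, while the gained genes reached 0.47 to 1.91 CPM at week 3. Both sets are thus genes of low level, and replicate 1 of week 3, the shallowest library, held 29 M counts against 41.5 M or more at week 0. The part of depth in the excess of lost genes was not tested. Without replicate 4 of week 3 the lost genes numbered 187, and without replicate 1 of week 0 the gained genes numbered 41. By the rule that defines them, these counts cannot fall when a library is left out.

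Many of the lost genes had counts in a later week. Lost and gained genes were chosen by a lack of counts at week 3 or week 0, so counts in other groups can come from that choice. Shares over other genes of like level were not counted, and no recovery is read from these numbers. Of all lost genes, 51 had no count in any control library of week 6 and 41 had none at week 18. A count in all 4 libraries of week 18 was found for 49 of the lost genes. In the bud under ethylene at week 3, 84 had no count in any library and 2 had a count in all 4. Of the 20 gained genes, 17 had a count in all 4 libraries under ethylene, 17 in all 4 control libraries of week 6 and 10 in all 4 of week 18. Most genes of both sets were not seen in flesh: 87 of the lost and 13 of the 20 gained genes had no count in any flesh library of weeks 0 and 3.

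The composition of the libraries became less top-heavy. The 100 genes with most counts in a library took 22.9%, 23.2%, 23.5% and 23% of its counts at week 0 and 21.1%, 21.2%, 21.1% and 20.7% at week 3. The means were 23.1% ± 0.256 and 21% ± 0.216 (SD, n = 4), a difference of -2.11 points with groups that did not overlap (exact two-sided permutation p = 0.0286, the smallest that 4 against 4 allows). The 10 top genes together lost 1.18 points, from 7.68% to 6.5%, and the 1000 top genes went from 55.9% to 54.7%, each with the same exact permutation p (n = 4 per week).

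Called genes lay on all 12 chromosome numbers that the IDs carry. The share of tested genes that rose was between 14.7% (chromosome 4) and 19.2% (chromosome 5), and the share that fell was between 15.8% (chromosome 12) and 21.1% (chromosome 2). Large changes also came in runs of neighbouring IDs. In 4 places, 4 or more tested IDs in a row all rose 2-fold or more (18 genes), and in 11 places they all fell 2-fold or more (53 genes). The runs were found after the values were seen and are given as a description, with no test of the runs as such. Neighbours of this kind can be near-identical copies, and the division of reads between copies is not described, so sums over a run are given rather than single genes.

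The rising run with the highest level at week 3 holds 6 IDs numbered on chromosome 8, which had a median log2 difference of 2.13 and a largest adjusted p of 5.36e-08. Its summed CPM was 42.9, 35.3, 43.3 and 30.7 at week 0 and 169.4, 145.3, 141 and 124.3 at week 3. All week 3 sums were above all week 0 sums. The sum went on to 334 ± 12 CPM at week 6 (mean ± SD, n = 4), its highest of the 9 control weeks, and stood at 33.4 ± 5.3 CPM by week 15 and 139 ± 27.6 CPM by week 18. In flesh the same 6 IDs summed to 0.64 ± 0.344 CPM at week 0 and 6.28 ± 1.89 CPM at week 3, far below the bud.

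A second rising run, of 4 IDs numbered on chromosome 1, moved the same way at a lower level. Its sums were 2.27, 2.41, 3.9 and 1.82 CPM at week 0 and 28.8, 26.8, 27.6 and 25 CPM at week 3, again without overlap. It too was highest at week 6, with 79 ± 4.19 CPM, and stood at 7.82 ± 0.882 CPM at week 15. Buds under ethylene at week 3 were at 74 ± 19.1 CPM for this run and at 231 ± 44.4 CPM for the run on chromosome 8, both above all control libraries of week 3. No count of this run was found in flesh at week 0.

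The remaining rising runs, of 4 IDs each, followed other courses. The one numbered on chromosome 7 was at 4.49, 3.64, 5.3 and 4.59 CPM at week 0 and at 26, 16.3, 16.5 and 17.9 CPM at week 3, and it was highest at week 15, with 1715 ± 361 CPM. The one numbered on chromosome 11 was at 3.45, 1.73, 4.55 and 10 CPM at week 0 and at 14.6, 15.5, 15.9 and 56.1 CPM at week 3, with replicate 4 far above the others. It was highest at week 9, with 67 ± 38.3 CPM. Under ethylene at week 3 these runs were at 14.6 ± 2.56 and 6.11 ± 5.31 CPM, below the control means of 19.2 ± 4.61 and 25.5 ± 20.4 CPM.

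The falling runs include the 2 with most counts at week 0 of all runs. In a run of 5 IDs numbered on chromosome 8, with a median log2 difference of -1.78 and a largest adjusted p of 1.61e-07, the sum was 7551, 8187, 7979 and 7981 CPM at week 0 and 2283, 2449, 2122 and 2274 CPM at week 3. The groups were tight and far apart. The run then rose to 3487 ± 536 CPM at week 6 and 3916 ± 334 CPM at week 9, and was at 317.4 to 579 CPM at week 15. In flesh it went from 5566 ± 320 to 3872 ± 321 CPM over the first 3 weeks.

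In another run of 5 IDs, numbered on chromosome 3, the sum was 5319, 6128, 6032 and 5007 CPM at week 0 and 1158, 1162, 1027 and 1128 CPM at week 3, with a median log2 difference of -2.55. These IDs had higher CPM in flesh, which was scaled apart from bud, at 10138 ± 799 CPM at week 0 and 4552 ± 782 CPM at week 3. Under ethylene at week 3 the bud held 2052 ± 236 CPM of this run and 4894 ± 515 CPM of the one on chromosome 8, between the control sums of weeks 0 and 3. The longest falling run held 7 IDs numbered on chromosome 1, with sums of 51.4, 48.9, 53.7 and 54.4 CPM at week 0 and 21.3, 19, 17.7 and 17.3 CPM at week 3. It stayed low, with means between 15.2 and 21.9 CPM in all later control weeks.

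Of the falling runs, the one with the largest median log2 difference (-4.19) held 5 other IDs numbered on chromosome 3, with sums of 198, 223, 220 and 184 CPM at week 0. At week 3 they summed to 10.45, 7.65, 8.31 and 20.3 CPM, with replicate 4 the highest. The run was at 7.26 ± 2.62 to 17.4 ± 7.61 CPM in the later control weeks, and so did not return.

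**Figure D3:**
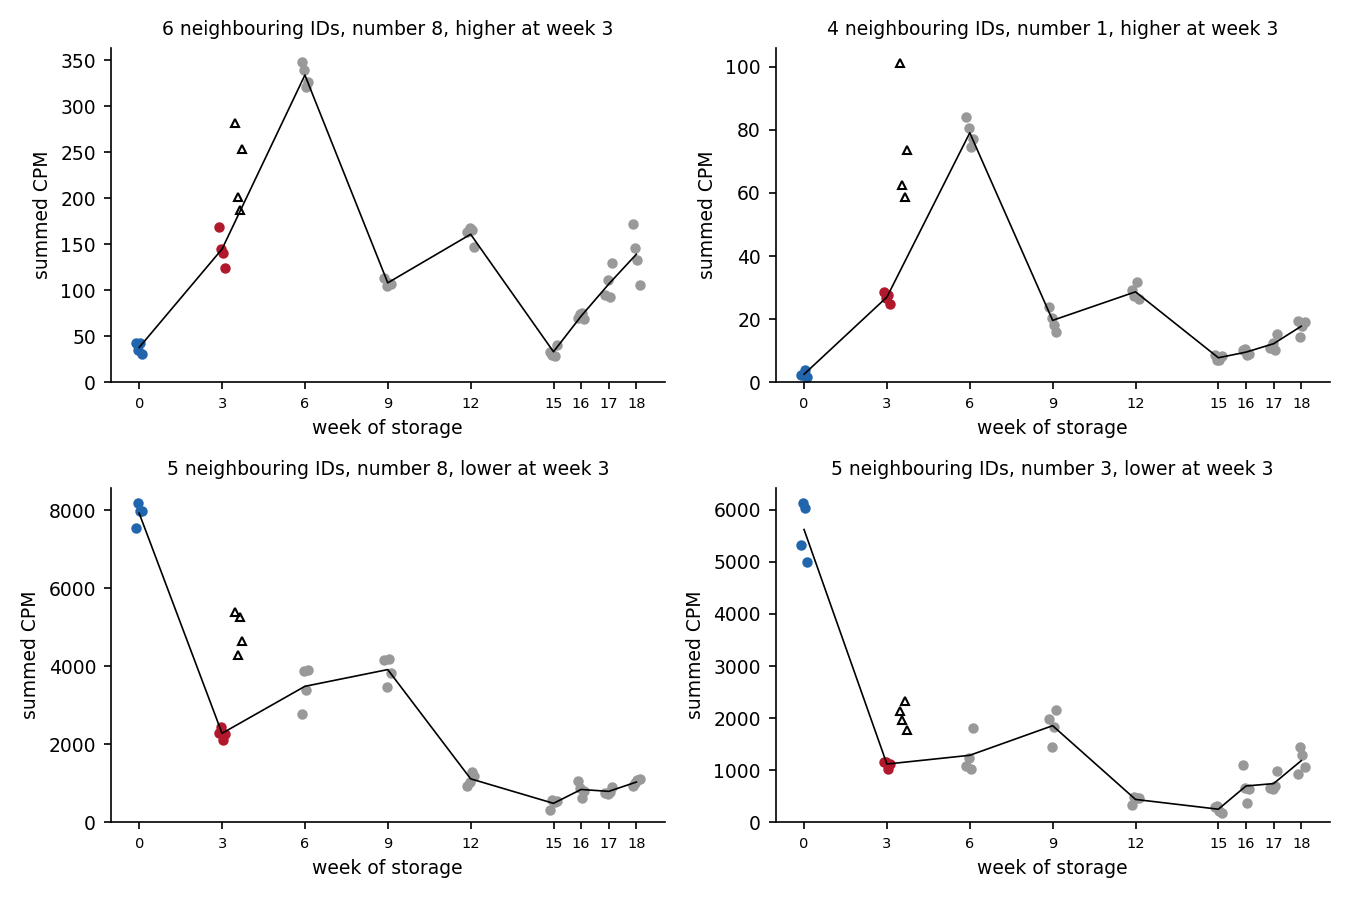
Summed CPM (vertical, linear from 0) of 4 runs of neighbouring IDs against week of storage (horizontal), the 2 of the rising runs most abundant at week 3 (upper panels) and the 2 of the falling runs most abundant at week 0 (lower panels). Points are control bud libraries, blue at week 0 and red at week 3, the line joins the means, and open triangles, drawn just right of week 3, are buds under ethylene at week 3. Both rising runs shown peak at week 6 (334 and 79 CPM), and the ethylene libraries lie above the control libraries of week 3 in all 4 panels.

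Levels in the later weeks are given for the genes changed 2-fold or more, as a description. Over the 668 strongly higher genes the median of log2(mean CPM + 1) was 1.29 at week 0, 2.37 at week 3 and 3.03 at week 6, and it was between 2.63 and 2.78 from week 9 to week 18. For 63 of the 668, week 3 was the highest of the 9 weeks. Over the 1785 strongly lower genes the median was 3.18 at week 0 and 1.69 at week 3, and it climbed to 2.36 at week 18. Week 0 was the highest of the 9 weeks for 1119 of them and week 3 the lowest for 547. The lists were chosen by the difference between weeks 0 and 3. Extremes at these weeks, and part of the move after week 3, can come from that choice. Shares over all genes tested were not counted. Genes that were not called kept a median between 2.19 and 2.49.

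**Figure D4:**
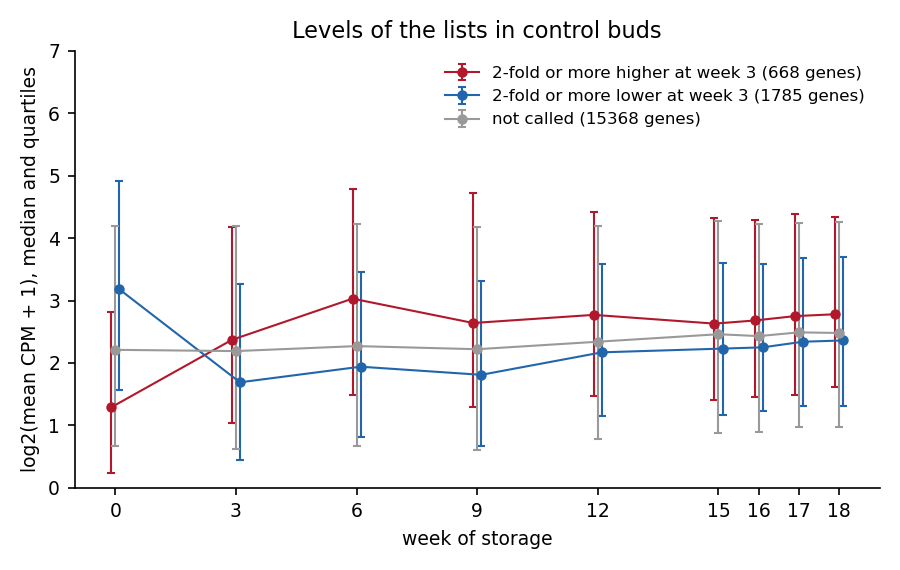
Median and quartiles over genes of log2(mean CPM + 1) (vertical) against week of storage in control buds (horizontal), for genes 2-fold or more higher (red, 668 genes) or lower (blue, 1785 genes) at week 3 and for genes not called (grey, 15368 genes). The red median passes from 1.29 to 3.03 by week 6, and the blue median drops from 3.18 to 1.69 at week 3 and reaches 2.36 at week 18.

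Later change was tested between weeks 6 and 18, whose libraries are not among those compared first. Both tests come from the same fit of 36 control bud libraries. They share its scaling, filter and estimate of the spread, so the later test is not independent of the first. Of all 23733 genes, 7877 rose (33.2%) and 6739 fell (28.4%) from week 6 to week 18, together 61.6%, with a median of 0.1 on the log2 scale. Of the 668 strongly higher genes, 173 rose further (25.9%) and 255 fell (38.2%), with a median of -0.3. Of the 1785 strongly lower genes, 704 rose (39.4%) and 377 fell (21.1%), with a median of 0.41. Over all called genes, whatever their size, these medians were -0.05 for the 4030 higher and 0.03 for the 4335 lower genes, on either side of 0 and both under that of all genes.

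Among genes that fell first and rose later, with a mean of at least 5 CPM in one group and counts in each group of weeks 6 and 18, the one with the largest later rise, Soltu.DM.03G030290, was at 1.45, 1.13, 1.11 and 1.67 CPM at week 0 and had no count at week 3. Its only count at week 6 was in replicate 1 (0.13 CPM), and at week 18 it was at 6.18, 6.77, 9.56 and 7.96 CPM, above week 0 (log2 difference between weeks 18 and 6 of 7.53, SE 0.74, adjusted p = 1.019e-09). The next, Soltu.DM.04G037290, went from 41, 40.6, 46.8 and 50.5 CPM at week 0 to 0.486, 0.309, 0 and 0 CPM at week 3. It was at 1.01 CPM or less at week 6 and at 29.7, 20.7, 48.5 and 29.9 CPM at week 18, a later log2 difference of 6.37 (SE 0.54, adjusted p = 4.585e-12). Both were lower at weeks 3 and 6 than at week 0, and higher again at week 18.

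Among genes that rose first and fell later, chosen with the same limits, Soltu.DM.02G031810 was at 2.58, 2.06, 0.827 and 1.72 CPM at week 0 and at 6.35, 11.7, 8.92 and 1.86 CPM at week 3, where replicate 4 lay within the range of week 0. It reached 14.8 to 29 CPM at week 6, and at week 18 its only counts were in replicate 2 (0.0915 CPM), a later log2 difference of -9.7 (SE 0.75, adjusted p = 4.421e-11). Soltu.DM.01G041870 had no count at week 0 and was at 0, 0.166, 0.195 and 0.218 CPM at week 3, so its first rise rests on few counts. It peaked at 3.83 to 9 CPM at week 6 and had counts in 1 library at week 18 (later log2 difference -6, SE 1.11, adjusted p = 2.63e-05).

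Fewer genes were called in flesh over the same weeks. The part of library depth in this was not tested. Of 20866 genes tested in flesh, 2173 were higher at week 3 (10.4%) and 1925 lower (9.23%), together 19.6%, 706 of them 2-fold or more. Among 20567 genes tested in both tissues, 1281 rose in both, which is 32.9% of the genes that rose in bud and 59% of those that rose in flesh. Another 981 fell in both, 25.2% of the bud list and 51% of the flesh list. Opposite directions were taken by 231 genes. Of the genes that rose in bud 3.01% fell in flesh, which is 6.09% of the flesh list, and of those that fell in bud 2.93% rose in flesh, 5.25% of the flesh list.

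The genes named for flesh, those with the largest fold changes there among genes with a mean of at least 5 CPM in one group and counts in each group, moved the same way in bud, with smaller fold changes for those that rose. Soltu.DM.06G028510 had a count at week 0 in 1 flesh library (0.797 CPM) and was at 56.4, 54.9, 38.3 and 36.2 CPM in flesh at week 3. In bud it went from 3.16, 2.89, 3.85 and 2.92 CPM to 72.5, 71.9, 75.4 and 62.9 CPM, a log2 difference of 4.46 (SE 0.33, adjusted p = 1.443e-12), and the tissues' changes differed by -3.29 (SE 0.78, adjusted p = 0.001428). Soltu.DM.09G026230 went from 1.02 to 1.39 CPM up to 95.4 to 117.5 CPM in flesh, and in bud from 0.434, 0, 0.388 and 0 CPM to 4.24, 5.63, 5.34 and 5.24 CPM. Its change in bud was smaller by 1.78 on the log2 scale (SE 0.56, adjusted p = 0.02051).

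Of the falling genes named in flesh, Soltu.DM.01G048780 fell in both tissues, in bud from 10.1, 7.4, 8.48 and 9.84 CPM to 1.04, 1.64, 1.15 and 0.901 CPM (log2 difference -2.91, SE 0.67, adjusted p = 0.0008203). In flesh the log2 difference was -3.96 (SE 0.82, adjusted p = 0.000415), and the tissues' difference of 1.13 did not pass the test (adjusted p = 0.6415). Soltu.DM.07G013830 rests on single libraries: in flesh at week 0 replicate 3 held 57.3 CPM, replicate 1 held 2.94 CPM and the others none, and in bud at week 0 replicate 4 held 41.7 CPM and replicate 2 held 1.1 CPM. Without replicate 3 of flesh at week 0 its adjusted p in flesh was 0.5505.

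Tested directly, the tissues' changes differed in 15.8% of 24153 genes, with a more positive change in bud in 2418 (10%) and a more negative one in 1388 (5.75%). With DESeq2's size factors the counts were 1461 and 1790, and with only the libraries of weeks 0 and 3 fitted 1355 and 1829, so the balance of the 2 directions turns with the scaling and with the libraries fitted. The bud libraries enter both the bud calls and this difference, so the next counts are a description. Of the 2418 genes, 1428 had risen in bud and 776 had fallen in flesh, and 877 had no call in bud. Of the 1388 genes, 1010 had fallen in bud and 407 had risen in flesh, and 299 had no call in bud.

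**Figure D5:**
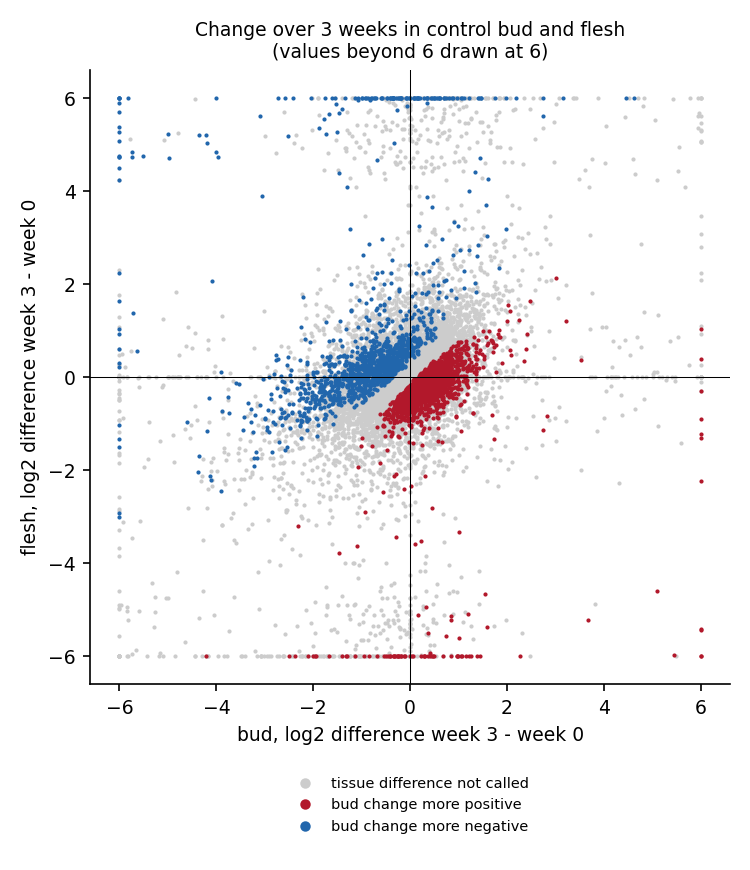
Log2 difference between weeks 3 and 0 in control flesh (vertical) against that in control bud (horizontal) for 20567 genes tested in both tissues, with values beyond the frame drawn at its edge. Points are genes, red or blue where the bud change was called more positive or more negative than the flesh change, and grey where the difference was not called. Points with opposite signs in the 2 tissues lie in the upper left and lower right of the plot.

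The genes named here had the largest tissue differences among genes with a mean of at least 5 CPM in one of the 4 groups and counts in each. Soltu.DM.09G024970 was at 11.3, 11.9, 11.1 and 10.1 CPM in bud at week 0 and 14, 11.9, 13.6 and 12.8 CPM at week 3, while in flesh it went from 1.27, 0.759, 1.24 and 2.27 CPM to a count in 1 library (0.44 CPM), a difference of the changes of 3.81 (SE 0.75, adjusted p = 0.0001312). Soltu.DM.03G012510 did not pass the test in bud (log2 difference -0.34, adjusted p = 0.3499) and rose in flesh from 0.434, 0, 0 and 0.673 CPM to 8.58, 7.25, 10.8 and 9.95 CPM, a difference of -5.29 (SE 0.70, adjusted p = 1.061e-07). Both differences were called in all the alternatives run. Without replicate 1 of flesh at week 3, which held the only counts of Soltu.DM.09G024970 there, its fitted difference was 8.88, a value that a group without counts does not fix.

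The other genes named for the tissue difference were less firm. Soltu.DM.01G036460 rose in bud from 1.04, 1.03, 1.29 and 0.957 CPM to 9.55, 6.82, 8.02 and 6.12 CPM (log2 difference 2.82, SE 0.28, adjusted p = 7.561e-10) and had counts in 1 flesh library at each week. Its tissue difference of 3.63 (SE 1.14, adjusted p = 0.02212) turned to -2.04 without replicate 4 of flesh at week 0 (adjusted p = 0.4268). Soltu.DM.07G022700 fell in bud from 3.79, 4.22, 5.87 and 6.21 CPM to 0, 0.285, 0.585 and 0.273 CPM, and in flesh it was at 0.911 CPM or less. Its tissue difference of -6.08 (SE 2.12, adjusted p = 0.04233) lost its call in 13 of the 16 leave-one-out fits, with adjusted p up to 0.08063.

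Buds that spent the same 3 weeks under ethylene were compared with the control buds of week 3. Of 23822 genes tested, 1402 were higher (5.89%) and 1300 lower (5.46%) under ethylene, together 11.3%. The control libraries of week 3 enter this comparison and the storage change alike, so the values are set side by side and nothing is read from their likeness. Of the 4030 genes higher at week 3 of storage, 650 were higher under ethylene (16.1%) and 187 lower (4.64%), and of the 4335 lower genes 238 were higher (5.49%) and 512 lower (11.8%). Without replicate 4 of control week 3 the ethylene comparison called 926 higher and 842 lower genes, and without replicate 1 of the ethylene group 896 and 655. Without the latter, the higher genes held 464 and 89 that were higher and lower under ethylene, and the lower genes 156 and 319.

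Among genes called in both comparisons, with a mean of at least 5 CPM in one group and counts in each group, those with the largest rise under ethylene were Soltu.DM.01G041860 and Soltu.DM.01G045900. The former was at 0.169, 0, 0 and 0 CPM at week 0, at 1.74, 0.57, 0.707 and 0.601 CPM in the control libraries of week 3 and at 30.9, 8.98, 6.38 and 20.2 CPM under ethylene (log2 difference between ethylene and control 4.24, SE 0.45, adjusted p = 5.543e-08). The latter, the first ID of the rising run of 4 on chromosome 1, had no count at week 0, was at 0.798, 0.689, 0.731 and 0.601 CPM in control buds and at 22, 7.62, 7.28 and 12.4 CPM under ethylene (4.13, SE 0.40, adjusted p = 1.546e-08). Every ethylene library was above every control library for both genes.

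The genes with the largest fall under ethylene, chosen with the same limits, were not called in every leave-one-out fit. Soltu.DM.05G022550 was at 20.8, 19.5, 16.4 and 23.5 CPM at week 0, at 57.2, 34.8, 73.2 and 317 CPM in control libraries of week 3 and at 3.36, 4.57, 14.4 and 33 CPM under ethylene. Its log2 difference between ethylene and control was -3.14 (SE 0.94, adjusted p = 0.02445), and -2.03 without replicate 4 of control week 3 (adjusted p = 0.1964). Soltu.DM.03G016730 was at 5.97, 5.13, 8.36 and 38.3 CPM in the same control libraries and at 0, 0.397, 2.04 and 4.83 CPM under ethylene, with a log2 difference of -3.07 (SE 0.87, adjusted p = 0.01686) that was -1.93 without that replicate (adjusted p = 0.1841). The call of the former was lost in 4 of 8 such fits, which left out that replicate or ethylene replicate 1, 2 or 3, and that of the latter in 3 of 8, with that replicate or ethylene replicate 1 or 2 left out.

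Few genes were called for a change in the shares of their transcripts. A gene without a call may still have changed. Of 5382 genes with 2 or more transcripts tested, 1.91% were called between weeks 0 and 3 by edgeR's test of differential usage. Without replicate 2 of week 3 the share called was 0.938%. That test called many unchanged genes on simulated counts, so a test of each transcript with limma, combined over a gene by Simes' method, was added after the data were seen, and it called 17 of 4772 genes (0.356%), 11 of them in both. Of the genes called by edgeR, 32 rose and 24 fell in total counts, and 47 had no call for the gene as a whole. In 22 of the genes called by edgeR the leading transcript differed between the weeks. Over all 23733 genes tested for the gene as a whole, 17% rose and 18.3% fell. These shares were not counted for genes with 2 or more transcripts, so nothing is read from the split. The sources used here do not say how reads were divided between transcripts.

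In Soltu.DM.06G018130, called by both tests (adjusted p = 0.000662 with limma), the second transcript held no count at week 0 and 2.59% ± 1.23 (SD, n = 4) of the gene's counts at week 3, while the gene rose from 16.5, 12.3, 14.7 and 9.74 CPM to 105.7, 123.2, 108.2 and 93.83 CPM (log2 difference 3.02, SE 0.21, adjusted p = 4.174e-13). In Soltu.DM.02G025500 the first transcript held no count at week 0 and 20.4% ± 13.2 at week 3, with a range of 7.41% to 36%, and the third went from 51.4% ± 6.49 to 30% ± 9.31. Its change of shares was not called with limma (adjusted p = 0.0743), and the gene as a whole rose by 0.39 on the log2 scale (SE 0.09, adjusted p = 0.0004124).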

How the data were processed

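RNA of 34 groups of 4 libraries was measured by RNA-seq. A Qiagen RNeasy Plant Mini kit was used for total RNA, per the labels' protocols. Tools named in the submitters' processing notes are Trimmomatic, HISAT2, SAMtools and StringTie, with neither version nor role. Genome build and annotation version were not given in the sources used here. Counts per gene and per transcript were deposited by the authors, whole numbers without normalization. The gene table holds 32878 rows with an ID. A row that names no gene held 2.02% to 2.79% of the counts of the 8 libraries and was left out, as was a transcript row with 89 blank cells. The IDs had 0 matches in the RefSeq gene table, so the gene lists drawn up for hormones, dormancy, cell cycle and storage were not used, and IDs are printed as deposited, without names or sequences.

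CPM with trimmed mean of M-values scaling and all tests were computed from the deposited counts with edgeR 4.0.16 under R 4.3.3 (quasi-likelihood test, filter with a minimum count of 10 and a minimum total of 15, adjusted p under 0.05 by Benjamini-Hochberg over all genes tested). The 36 control bud libraries entered 1 fit (27 residual degrees of freedom), so that the 9 weeks share the estimate of the spread. Flesh used its 36 control libraries, the tissue difference all 72 (an interaction term) and ethylene 40. Bud CPM were scaled in the fit of 40 libraries and flesh CPM in the fit of the 36 of flesh. Standard errors were derived from the F statistic. Steps were checked on simulated data. No source used here says whether counting used strand or how it treated near-identical or overlapping genes, which makes their values uncertain.

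At most 2 IDs higher and 2 lower were named per comparison. For bud they came from genes past the threshold whose groups did not overlap. In each direction these were the largest fold change with at least 5 CPM in a group, and the largest change in mean CPM. For the others they were the largest changes among genes past the threshold with at least 5 CPM in one group and counts in every group compared, for weeks 18 and 6 among genes that had first moved the other way, and for ethylene among genes called in the storage change. The comparison, its lists and its tests were chosen with earlier results of these data known. Alternatives were DESeq2 1.42.0 (size factors and test), upper-quartile scaling, other filters, other sets of libraries, a replicate block and each library left out.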

Additional observations from a re-analysis of the deposited data

Results flagged for a closer look

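Single libraries stood far from the other 3 of their group in 15 of the 56 sets of 4 values checked. The genes were named for large differences, and sets with counts in 1 library alone are readily flagged. The 15 are therefore not set against a rate by chance. Most of these were genes near 0 in which 1 library held all or most of the counts. In flesh these were Soltu.DM.06G028510 at week 0 (replicate 2, 0.797 CPM), Soltu.DM.07G013830 at week 0 (replicate 3, 57.3 CPM) and week 3 (replicate 1, 0.754 CPM), Soltu.DM.09G024970 at week 3 (replicate 1, 0.44 CPM), Soltu.DM.01G036460 at week 0 (replicate 4, 0.758 CPM) and week 3 (replicate 3, 0.412 CPM), and Soltu.DM.07G022700 at week 0 (replicate 2, 0.683 CPM). In control bud they were Soltu.DM.03G030290 at week 6 (replicate 1, 0.13 CPM), Soltu.DM.02G031810 at week 18 (replicate 2, 0.0915 CPM) and Soltu.DM.01G041870 at week 18 (replicate 3, 0.36 CPM). Where such a library held the only counts of its group, the size of a fold against that group rests on it.

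In control bud at week 3, replicate 1 was the high library for Soltu.DM.03G012510 (4.44 CPM) and Soltu.DM.01G041860 (1.74 CPM). Replicate 4 was the high library for Soltu.DM.05G022550 (317 CPM) and Soltu.DM.03G016730 (38.3 CPM), and the low one for the share of the 100 top genes (20.7%).

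The change over the first 3 weeks differed between bud and flesh by the test of the difference for Soltu.DM.09G024970 (3.81 on the log2 scale, bud minus flesh), Soltu.DM.01G036460 (3.63), Soltu.DM.07G022700 (-6.08) and Soltu.DM.03G012510 (-5.29). Those of Soltu.DM.01G036460 and Soltu.DM.07G022700 did not hold with each library left out in turn.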

How the results depend on the processing

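With each library of weeks 0 and 3 left out in turn, the bud comparison called 3570 to 4089 higher and 3768 to 4175 lower genes, of which 630 to 699 and 1574 to 1841 were 2-fold or more. Under the other settings it called 2908 to 4657 higher and 3547 to 4685 lower, the lowest counts coming from a fit of all 68 bud libraries. Without 1 bud library of week 17 after ethylene, that fit called 4157 and 4050. DESeq2's own test called 4134 and 4594. Large falls outnumbered large rises in each of these fits. Of 345 recomputed values of named genes, 316 kept their direction and call, 28 lost the call and 1 reversed, the tissue difference of Soltu.DM.01G036460 (-2.04 without replicate 4 of flesh at week 0, in a range of -2.04 to 8.56 with a library left out). The 4 genes named for the bud comparison kept their calls in all fits.

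Genes with a more positive change in bud than in flesh numbered 1461 with DESeq2's size factors and 1355 with only the libraries of weeks 0 and 3. The ethylene comparison called 896 to 1238 higher and 655 to 1248 lower genes with a library left out. Transcript usage was called in 0.938% to 1.89% of genes with a library left out and in 0.356% with limma. Genes without counts at week 0 numbered 31 at a minimum of 5 counts and 27 to 41 with a library left out. Those without counts at week 3 numbered 69 at a minimum of 20 counts. By their rule such counts cannot fall with a library left out or a lower minimum. The share of the 100 top genes differed by -2.18 to -2 points with a library left out, where 3 against 4 cannot give an exact permutation p below 0.0571. The cause of these shifts was not tested.

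Over all genes, no pairing of the libraries of weeks 0 and 3 by replicate number was seen. A correlation over all genes cannot show a pairing that touches few of them. Correlations of the deviations of same-numbered libraries from their group means were -0.02 to 0.003 (4 pairs, none over 0.1), against -0.046 to 0.034 for different numbers. With the replicate number as a block, the bud comparison called 4056 higher and 4413 lower genes, and the one call of a named gene that was lost was that of Soltu.DM.07G013830 in flesh (-4.35, adjusted p = 0.2135). Depth limits genes of low level most.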

Other observations

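Soltu.DM.05G022550 and Soltu.DM.03G016730, named above for their fall under ethylene, had their highest value in replicate 4 in several groups that share no library. Soltu.DM.05G022550 was at 7.04, 18.4, 76.3 and 169 CPM in control bud at week 6, at 5.07, 6.13, 26.6 and 30.4 CPM at week 18 and at 2.39, 3.44, 7.61 and 55.9 CPM in flesh at week 3. In flesh at week 0 it went the other way, at 6.68, 4.13, 4.31 and 3.58 CPM, lowest in replicate 4. Soltu.DM.03G016730 was at 3.32, 6.81, 20.8 and 36.3 CPM in control bud at week 6 and at 0, 0, 0.666 and 6.6 CPM in flesh at week 3, while at week 18 its replicates 3 and 4 held 15.9 and 13.8 CPM. Across all genes the libraries of weeks 0 and 3 that share a number did not deviate together. The labels do not say what the replicate numbers mark, and the part of a shared source in these values was not tested.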
